A study of Rattus norvegicus with 24 samples.

Results

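The 12 control retinas, 6 taken at the 1 month and 6 at the 3 month time point, were examined out of 24 retinas in the series. They were the samples titled as controls, taken here as 1 array per rat, from male Sprague Dawley rats that had received only the sodium citrate vehicle. The other 12 samples came from rats given streptozotocin (STZ), which destroys pancreatic beta cells and makes rats diabetic. The paper's table of animals lists 5 control rats at 1 month for the microarray set, and the labels do not explain the difference from 6 arrays. The ages of the rats were not given in the labels. Each array carried 33849 rat probes, of which 4675 could be tied to 4013 named genes through RefSeq accessions. The level of a gene was described by the percentile of its brightest probe among the rat probes of the same array, so that 100 stands for the brightest probe and 50 for the middle of the array. Photoreceptor genes, crystallins, glycolytic enzymes and ribosomal proteins held the brightest places at both time points, and 220 of 346 abundant genes (a mean percentile of at least 95) lay among the brightest 5% of probes on all 12 arrays. Among functional groups, 10 of 12 tested genes of the circadian clock and melatonin synthesis and 14 of 24 genes of the respiratory chain, ATP synthase and mitochondrial carriers were lower at 3 months, against 33.3% of the tested named genes, but with a trend over the array removed 8 of these 24 were lower and 5 higher, while most rod, glycolytic and crystallin genes were not called in either direction on the quantile-normalized scale. The arrays of the time points also differed as arrays, as described next, so that time and array processing cannot be told apart in any of the shifts.

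The retina is a layered nervous tissue in which rods and cones turn light into a change of membrane potential, bipolar, horizontal and amacrine cells process it, and ganglion cells send it to the brain. Mueller glia span the tissue and recycle glutamate and potassium. Rods make up most of the cells of a rat retina, renew their outer segments continuously and rely on both glycolysis and mitochondrial respiration. In RNA of whole tissue, fewer cells of a type and less RNA per cell cannot be told apart. Probes also differ in how well they hybridize, so a difference in percentile between genes is not a difference in the number of transcripts.

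The 12 arrays differed in how far the probes spread. The interquartile range of the log2 intensities was 3.36, 3.47 and 3.67 (lowest, median and highest) on the 1 month arrays and 1.48, 1.81 and 2.23 on the 3 month arrays, with no overlap (exact permutation test, two-sided, p = 0.00216, the smallest that 6 against 6 arrays allow). The median intensity overlapped, with 124 to 360 at 1 month and 149 to 308 at 3 months (exact permutation test, p = 0.569). The 62 probes for bacterial genes, which should not hybridize rat RNA, had their median at percentiles 9.14 to 14.2 of the rat probes at 1 month and 27.1 to 36.4 at 3 months (exact permutation test, p = 0.00216), and their 95th percentile lay at 42.6 to 53.7 and at 57.0 to 69.5. The Spearman correlation between arrays had a median of 0.983 within the 1 month controls, 0.943 within the 3 month controls and 0.750 between them. Replicate 2 of the 3 month controls stood apart, with a median correlation of 0.778 with the others of its group, where the other 3 month controls had 0.924 to 0.951. The shift in percentile also followed the position of the probe on the array, with a median of 4.47 points in rows 83 to 123 and of -10.4 points in rows 288 to 328. The labels named no batch, and each time point formed a set of arrays of its own.

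**Figure D1:**
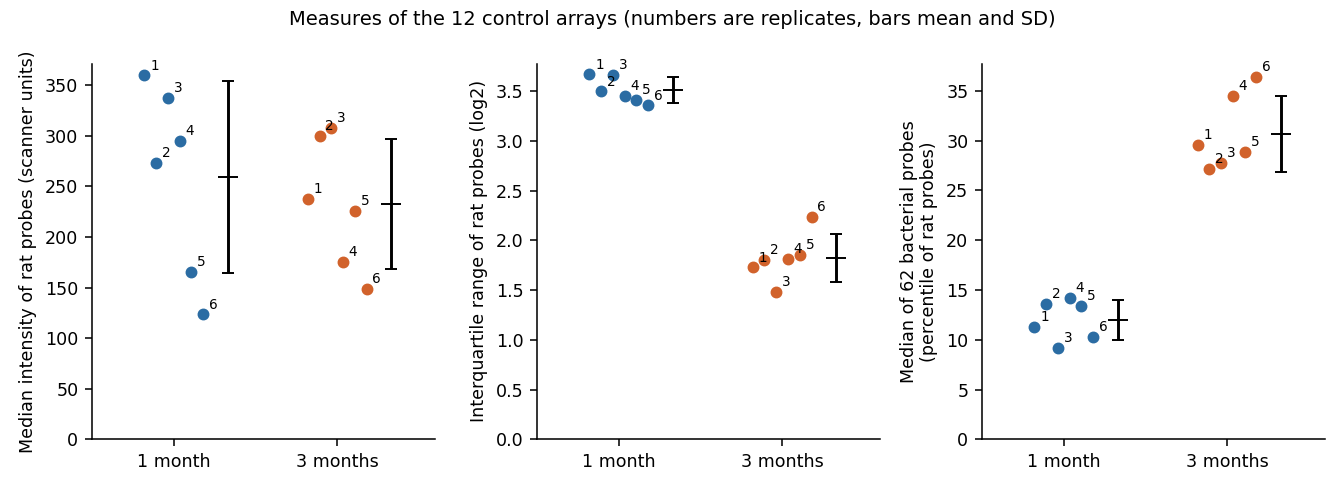
The median intensity of the rat probes (scanner units), their interquartile range (log2) and the percentile of the rat probes at which the median of the 62 bacterial probes lay, for each of the 6 control arrays at 1 month (blue) and at 3 months (orange), with the mean and SD as bars. The median intensities overlap, and the other measures are separated, with interquartile ranges of 3.36 to 3.67 against 1.48 to 2.23.

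The 20 named genes with the highest mean percentile were Sag, Prph2, Cryba2, Ppia, Pdc, Rps29, Cpe, Cryab, Ldha, Glul, Aldoc, Gapdh, Cryba4, Rps27a, Aipl1, Rcvrn, H3f3b, Atf4, Prnp and Crybb3. All 20 stayed above the 99th percentile on all 12 arrays, and no rank among them was worse than 153 of the 33849 rat probes. Of these genes, 17 were not called between the time points. Probes with a mean percentile of at least 35 were tested on quantile-normalized log2 intensities, and a call meant an adjusted p under 0.05 in limma and a difference of at least 1.2-fold. Across all 21568 tested probes 52.4% were called, across the 2756 tested named genes 54%, and across the 346 abundant genes 38.4%. Of the called probes 44.7% were higher at 3 months, but 26.4% under median scaling without quantile normalization and 65.3% among probes above the bacterial probes on all 12 arrays.

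Of the 20 genes, 5 belong to photoreceptors. Sag, the arrestin of rods, ranked 2, 3.5 and 6 (lowest, median and highest) on the 1 month arrays and 4, 6.5 and 9 on the 3 month arrays. Prph2, the tetraspanin that shapes the rims of outer segment discs, ranked 7, 12.5 and 15 at 1 month and 10, 11.5 and 12 at 3 months. Pdc, the phosducin that binds the beta and gamma subunits of transducin, ranked 16, 22 and 32 at 1 month and 16, 19 and 30 at 3 months. The ranks of these 3 genes overlapped between the time points, and none of them left the brightest 32 probes of any array. Aipl1, a chaperone needed for rod phosphodiesterase, ranked 44, 60 and 66 and then 31, 46.5 and 48. Rcvrn, the photoreceptor calcium sensor recoverin, ranked 37, 56 and 132 and then 49, 58 and 62. These genes overlapped as well, and none of the 5 was called.

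The promoters of the brightest photoreceptor genes are shown because these genes headed the arrays at both time points. The capitals mark TAATCC or its reverse complement GGATTA, the core letters that the photoreceptor factor CRX and its relative OTX2 are known to bind. The sequences are 300 bases around the start site, most of them before it, on the gene's strand, from RefSeq on GRCr8, at chr9:95916947-95917246 (plus strand) for Sag, at chr9:21579025-21579324 (minus strand) for Prph2 and at chr13:64908057-64908356 (plus strand) for Pdc.
Sag: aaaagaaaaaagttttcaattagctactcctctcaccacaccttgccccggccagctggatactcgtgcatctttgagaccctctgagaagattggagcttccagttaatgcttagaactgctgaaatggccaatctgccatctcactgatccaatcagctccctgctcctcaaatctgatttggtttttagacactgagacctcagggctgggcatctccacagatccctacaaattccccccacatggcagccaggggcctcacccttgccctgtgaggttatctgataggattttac
Prph2: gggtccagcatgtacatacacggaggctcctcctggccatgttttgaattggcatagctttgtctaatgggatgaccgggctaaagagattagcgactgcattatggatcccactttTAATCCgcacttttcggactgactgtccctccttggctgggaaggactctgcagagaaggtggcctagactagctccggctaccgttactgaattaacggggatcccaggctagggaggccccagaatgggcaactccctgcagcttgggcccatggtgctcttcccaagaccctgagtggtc
Pdc: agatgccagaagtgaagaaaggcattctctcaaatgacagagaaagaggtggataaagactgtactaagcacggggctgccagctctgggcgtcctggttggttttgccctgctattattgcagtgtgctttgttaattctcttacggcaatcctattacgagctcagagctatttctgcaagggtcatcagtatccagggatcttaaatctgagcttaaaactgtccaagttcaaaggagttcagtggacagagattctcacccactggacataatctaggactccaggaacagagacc
Of these 3 windows the one of Prph2 held 1 match, starting at base 118 of the 300 bases, and those of Sag and Pdc held none. Over both strands, 7.11% of 27457 promoters of this length held a match, as did 6.97% of the 287 abundant genes that had a promoter sequence. In the list of phototransduction and outer segment genes 3 of 12 promoters held one, or 25%. A match is a description of these letters only.

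Crystallins formed the next group among the 20. Cryba2, a beta-crystallin of the lens that is also found in retina, ranked 1, 12.5 and 25 at 1 month and 11, 15.5 and 28 at 3 months, and on 1 array of the 1 month controls it was the brightest rat probe. Cryba4 ranked 13, 39.5 and 116 and then 14, 32 and 94, and Crybb3 ranked 21, 71 and 153 and then 34, 58.5 and 103. The ranks of these beta-crystallins spread more widely among rats of 1 time point than those of Sag or Prph2, and the groups overlapped. Cryab, a small heat shock protein that is abundant in lens and made by Mueller glia, ranked 19, 38.5 and 101 at 1 month and 13, 21 and 46 at 3 months. None of the 4 was called. The summed scaled intensity of the 8 measured lens genes ran from 183 to 502 at 1 month and from 130 to 325 at 3 months, in multiples of the array median. The part of lens tissue in these levels was not tested.

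Glycolytic and glial enzymes came next. Ldha, which turns pyruvate into lactate, ranked 31, 35 and 47 at 1 month and 35, 37.5 and 43 at 3 months, and it was also among the 5 abundant genes with the smallest spread over all 12 arrays. Aldoc, the brain form of aldolase, ranked 26, 36.5 and 52 and then 47, 51.5 and 60. Gapdh ranked 28, 44.5 and 76 and then 30, 43 and 49. Glul, the glutamine synthetase of Mueller glia, ranked 8, 22 and 77 at 1 month and 33, 41.5 and 56 at 3 months, a wider range at 1 month than that of the glycolytic enzymes. None of these 4 genes was called.

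Among the remaining genes of the 20, 3 were called. Rps27a, which encodes a ribosomal protein fused to ubiquitin, ranked 51, 63 and 96 at 1 month and 27, 31.5 and 37 at 3 months, so that every 3 month array lay above every 1 month array. Its log2 difference, 3 months minus 1 month, was 0.51 ± 0.08 (SE, limma, adjusted p = 6.35e-05), but the call was lost under median scaling (0.058) and after subtraction of a background level, the 5th percentile of the array (0.55). Atf4, the transcription factor of the integrated stress response, ranked 51, 81.5 and 148 and then 41, 51 and 68, with a difference of 0.34 ± 0.10 (limma, adjusted p = 0.0134). The Atf4 ranks overlapped, and its direction turned under median scaling (-0.25). Prnp, the prion protein, ranked 33, 42 and 83 at 1 month and 77, 102 and 108 at 3 months, with a difference of -0.48 ± 0.10 (limma, adjusted p = 0.0013), and the call was lost with the trend over the array removed (-0.28) and after the same subtraction (-0.53). On their brightest probes, Ppia, the chaperone cyclophilin A, Rps29, Cpe, which trims peptide hormones, and H3f3b, the replacement histone H3.3, were not called and had median ranks of 17, 29.5, 23.5 and 55 at 1 month and of 24.5, 17, 21.5 and 59.5 at 3 months. Another probe of Ppia, with mean percentiles of 99.8 and 99.4, was called lower (-0.72, limma, adjusted p = 7.9e-06).

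**Figure D2:**
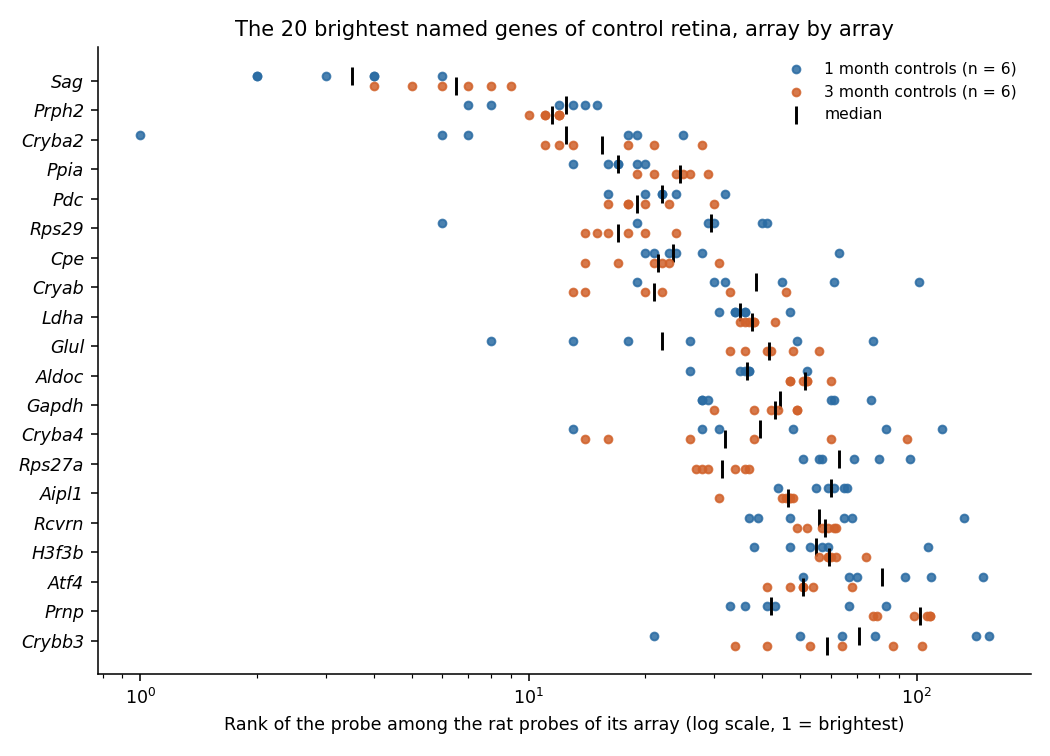
The rank among the 33849 rat probes (log axis, 1 is the brightest) of the 20 named genes with the highest mean percentile, for each 1 month (blue) and 3 month (orange) control array, with the group medians as black bars. Sag stays between ranks 2 and 9 on all 12 arrays, and the ranks of the time points are separated for Rps27a alone of the 20 genes.

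Most of the brightest named genes were shared by the time points. Of the 20 brightest genes of each time point 17 were shared, of the 50 brightest 36 and of the 100 brightest 81. Dck, Pebp1 and Prnp were in the first 20 at 1 month alone, and Atf4 and Mpp4 were among those at 3 months alone. Of the 346 abundant genes, 53 were in the brightest 5% on all 1 month arrays but not on all 3 month arrays, 39 the other way round, and 34 on all arrays of neither time point. The mean percentiles of the time points had a Spearman correlation of 0.780 across the 4013 named genes, which share the arrays and are not independent. The Spearman correlation between single arrays of the time points had a median of 0.635 over probes with a mean percentile of at least 95 and of 0.750 over all probes. A narrower range of levels lowers such a correlation by itself, and no value within a time point was taken for these bright probes. Whether the order within the top of the array shifted was therefore not tested. Of the abundant genes 65 (18.8%) were higher and 68 (19.7%) lower at 3 months, against 20.6% and 33.3% of the tested named genes, and 6 of the 346 differed by at least 2-fold on the quantile-normalized scale. Without replicate 2 of the 3 month controls 138 abundant genes were called.

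**Figure D3:**
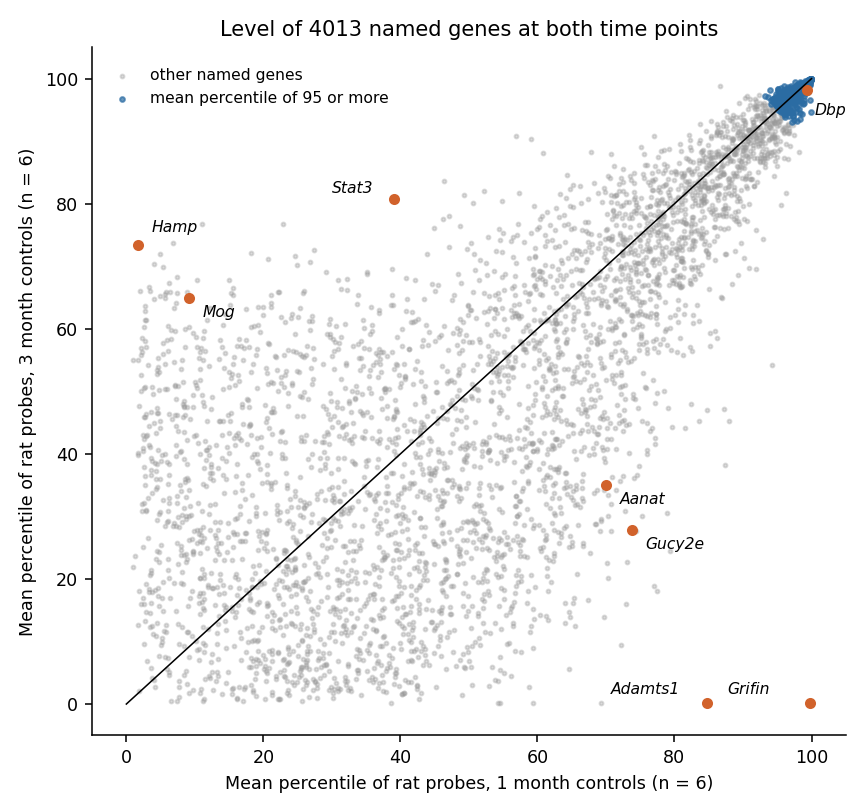
The mean percentile of each of 4013 named genes in the 6 control retinas at 3 months against that in the 6 at 1 month, with the line of equality and the abundant genes in blue. The abundant genes lie close to the line, where their choice by a mean percentile of at least 95 places them. Dim genes spread over the plane, and the labelled genes in orange are described in the text.

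Among the abundant genes, the 5 largest rises with separated groups were those of Grk1, Mapk6, Bin1, Grm6 and Sgk1. Grk1, a kinase that helps to end the light response, lay at percentiles 95.4, 98.1 and 98.9 (lowest, median and highest) at 1 month and 99.4, 99.5 and 99.8 at 3 months, a log2 difference of 1.06 ± 0.16 (limma, adjusted p = 8.38e-05). Its lowest 3 month array lay above its highest 1 month array, and in the STZ rats the difference was 0.04. Grm6, the glutamate receptor through which ON bipolar cells sense photoreceptors, lay at 93.9, 95.6 and 96.9 and then at 97.7, 98.7 and 99.1, a difference of 0.81 ± 0.13 (limma, adjusted p = 0.000134). Sgk1, a kinase induced by glucocorticoids, lay at 97.6, 98.4 and 98.7 and then at 99.4, 99.5 and 99.5, a difference of 0.78 ± 0.08 (limma, adjusted p = 3.27e-06). The groups did not overlap for either gene, as for 20.8% of the abundant genes. Mapk6, an atypical MAP kinase, rose by 0.95 ± 0.12 and Bin1, which bends membranes, by 0.87 ± 0.11 on the log2 scale (limma), and a dimmer probe of Bin1 was called in the opposite direction. The calls of all 5 rises were lost under median scaling, with differences of 0.41 for Grk1, 0.31 for Mapk6, 0.22 for Bin1, 0.16 for Grm6 and 0.12 for Sgk1, and with the trend over the array removed those of Grk1 (0.18) and Sgk1 (0.16) were lost.

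The 5 largest falls among the abundant genes were those of Dck, Usf3, Atp5f1c, Eif3h and Atp5f1a. Dck, the kinase that salvages deoxycytidine, lay at 99.8, 99.9 and 99.9 at 1 month and at 90.3, 95.6 and 98.7 at 3 months, a difference of -2.55 ± 0.24 (limma, adjusted p = 1.38e-06). Usf3 lay at 99.6, 99.8 and 99.9 and then at 93.1, 96.9 and 99.4, a difference of -1.71 ± 0.22 (limma, adjusted p = 2.50e-05). For both genes the highest 3 month array remained under the lowest 1 month array, and the 3 month arrays spread more widely. Eif3h, a subunit of the initiation factor that brings mRNA to the ribosome, lay at 98.1, 98.2 and 98.5 and then at 91.7, 93.8 and 94.5, a difference of -1.01 ± 0.09 (limma, adjusted p = 1.05e-06). The subunits Atp5f1c and Atp5f1a of the ATP synthase are given with the respiratory chain.

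The steadiest abundant genes, by the spread of their normalized log2 level over all 12 arrays, were Ldha, Ip6k1, Anxa1, Reln and Ncdn. Ip6k1, a kinase of inositol phosphates, lay at 98.8, 99.1 and 99.2 at 1 month and 98.9, 99.03 and 99.1 at 3 months. Anxa1, a calcium-dependent membrane-binding protein, lay at 97.1, 97.5 and 97.7 and 96.7, 97.7 and 97.9. Reln, the extracellular guide of neuronal layering, lay at 98.6, 98.8 and 98.9 and 98.3, 98.6 and 98.9, and Ncdn at 98.001, 98.4 and 98.7 and 97.98, 98.5 and 98.7. The groups of these 4 genes overlapped, and none was called.

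Other genes varied from rat to rat within a time point. The largest spread within groups, among genes in the upper part of the array, was that of Mx2, Sycp3, Bnip3, Trim3 and Rpl6. Mx2, an interferon-induced GTPase, lay at 55.3, 57.8 and 99.996 at 1 month, with replicate 2 at the top of the array, while the 3 month retinas lay at 69.4, 70.6 and 74.2. Trim3, a ubiquitin ligase of neurons, lay at 80.3, 83.04 and 83.9 at 1 month and at 82.7, 87.99 and 99.999 at 3 months, with replicate 4 of the 3 month controls far above the rest. Sycp3, a protein of meiotic chromosomes, lay at 5.22, 91.2 and 93.5 at 1 month and at 31.8, 60.3 and 78.1 at 3 months, with replicate 4 of the 1 month controls at the low end. Bnip3, a mitophagy receptor induced by hypoxia, lay at 46.04, 82.9 and 87.5 and then at 16.6, 71.2 and 83.02. Rpl6, a protein of the large ribosomal subunit, lay at 91.6, 94.7 and 99.4 and then at 69.005, 83.8 and 99.6. None of the 5 was called between the time points on its brightest probe, though another probe of Trim3 was called lower.

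Markers of rods and Mueller glia stood highest among the cell type lists of more than 1 gene. The 9 measured rod markers had a median percentile of 99.4, the 11 Mueller glia markers of 96.6, the 10 ganglion cell markers of 87.8, the 3 cone markers of 84.0 and the 14 amacrine and horizontal cell markers of 69.2, against 50.3 over all 4013 named genes. Grm6 was the only bipolar cell marker measured. Markers of other cells of the eye lay lower, at 62.1 for the 8 astrocyte, 60.4 for the 8 endothelium and pericyte, 52.2 for the 9 microglia and leukocyte, 50.04 for the 3 erythrocyte, 49.96 for the 4 ciliary body, iris and cornea, 39.5 for the 8 oligodendrocyte and 33.7 for the 4 retinal pigment epithelium genes. The exception was the lens list, with a median of 87.1 over 8 genes and 4 crystallins in the brightest 5%. Of the defining markers, Mbp of oligodendrocytes, Ptprc and Cx3cr1 of leukocytes and microglia, and Lrat of the pigment epithelium lay under the 95th percentile of the bacterial probes on all 12 arrays, as did Thy1 of ganglion cells and Gad2 of amacrine cells. Other members of these lists, Olig1 and Mag of oligodendrocytes and Aif1 and Ctss of microglia and leukocytes, lay above it on all 12 arrays.

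The counts of gene lists depended on the scaling. Median scaling moved the medians of 29 of 35 lists and turned 8, and with it 27 lists had more members called lower than higher, against 12 lists on the quantile-normalized scale. The share of the tested named genes called higher (20.6%) or lower (33.3%) is the background of each list below. The groups of the time points did not overlap for 36.3% of the tested named genes. On all 1 month arrays, Stat3, Lim2, Mog, Camk2n2, Txn2, Mmp14, Kcnh2 and Tap1 lay under the 95th percentile of the bacterial probes. On all 3 month arrays, Aldh1l1, Itgam, Slc4a1, Mobp, Crabp2, Rgs9, Grm5 and Slc8a1 lay under it. So did Canx, Fosl1, Cntn2, C3, Kcnn3, Prkaa2, Clock and Asmt. The size of the shifts of these genes is inexact.

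Of the 9 rod markers 1 was higher and 1 lower at 3 months, against 20.6% higher and 33.3% lower among all tested named genes, with a median log2 difference of -0.14 that equalled the -0.14 over those genes. Under median scaling 0 rod markers were higher and 5 lower, and with the trend over the array removed 2 were higher and 2 lower. Of the 16 phototransduction and outer segment genes 4 were higher and 3 lower. The rises were those of Grk1, of Gnb3, the beta subunit of cone transducin, of Unc119, which carries acylated transducin, and of Gucy2f, a guanylate cyclase that remakes cyclic GMP, which lay under the bacterial limit (the 95th percentile of the bacterial probes) on all 12 arrays. Gnb3 lay at 93.9, 95.1 and 96.7 and then at 96.3, 97.4 and 97.8, and Unc119 at 99.4, 99.6 and 99.8 and then at 99.7, 99.7 and 99.8, and both turned direction under median scaling (-0.21 and -0.35). The falls were those of Gucy2e, of Rgs9, which speeds the shut-off of transducin, and of Slc24a1, the sodium, calcium and potassium exchanger of rods. Slc24a1 lay at 91.7, 92.6 and 96.4 and then at 78.6, 86.8 and 89.7, a difference of -0.79 ± 0.17 (limma, adjusted p = 0.00146). Gucy2e lay at 69.7, 72.5 and 79.9 and then at 5.06, 25.9 and 57.4 and was called lower (limma, adjusted p = 0.000188), with all 3 month arrays under that limit, so that the size of its fall is not given.

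Opn1sw, the short-wavelength opsin of cones, lay at 75.7, 79.05 and 82.9 at 1 month and at 87.02, 88.8 and 90.8 at 3 months, a difference of 0.80 ± 0.14 (limma, adjusted p = 0.000241), with no overlap, but the call was lost under median scaling (0.18). With Gnb3 it made 2 of 3 cone markers higher. In the retinoid cycle, which remakes the chromophore, 2 of 3 tested genes were lower and 0 higher. Crabp2, a carrier of retinoic acid, lay at 50.3, 55.3 and 61.7 and then at 13.3, 23.2 and 44.5. Rpe65, the isomerase of the pigment epithelium, had medians of 48.1 and 44.5 and was not called on its brightest probe, while its other probe was called higher. Ttr, a thyroxine and retinol transporter made by the pigment epithelium, spread from 41.4 to 89.0 at 1 month and from 65.5 to 96.4 at 3 months and was called higher (difference 2.00 ± 0.50, limma, adjusted p = 0.00371).

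Among amacrine and ganglion cell markers, Pax6, a transcription factor of amacrine cells, had median percentiles of 98.9 and 98.8, Calb2, the calcium buffer calretinin, of 98.7 and 98.2, Sncg, the gamma-synuclein of ganglion cells, of 97.4 and 96.4 and Stmn2, a regulator of axonal microtubules, of 91.4 and 91.4, and none of the 4 was called on its brightest probe, though another probe of Stmn2 was called lower. Calb1, the calbindin of horizontal cells, fell from 76.9, 81.5 and 83.9 to 32.1, 59.8 and 64.2, a difference of -1.52 ± 0.23 (limma, adjusted p = 9.25e-05), and 2 of the 3 month arrays lay above the bacterial limit. Nefl, the light neurofilament, had medians of 90.4 and 85.3 and a difference of -0.61 ± 0.17 (limma, adjusted p = 0.00706), with overlapping groups. Slc18a2, which loads monoamines into vesicles, and Isl2, a transcription factor of a subset of ganglion cells, rose from medians of 28.9 and 25.3 to 39.8 and 52.96, and both lay under the 95th percentile of the bacterial probes on all 12 arrays. In the amacrine and horizontal list 2 of 11 tested genes were higher and 4 lower, and in the ganglion cell list 3 of 9 were higher and 1 lower.

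In glia, 0 of 9 tested Mueller markers were higher and 2 were lower, against 20.6% and 33.3% of the tested named genes. Under median scaling the counts were 0 and 6, and with the trend over the array removed 1 and 5. Vim, the intermediate filament vimentin, fell from 99.6, 99.7 and 99.8 to 98.7, 99.2 and 99.4, a difference of -0.76 ± 0.12 (limma, adjusted p = 9.05e-05). In the STZ rats the difference was -0.03, but the difference between the control and STZ shifts of Vim was not called. Clu, the extracellular chaperone clusterin, fell from 97.5, 97.9 and 99.2 to 94.1, 94.98 and 96.4, a difference of -0.75 ± 0.13 (limma, adjusted p = 0.000283). The groups were separated for both genes. Of 8 astrocyte and reactive glia genes 3 were higher and 2 lower. Gfap, the filament of astrocytes that Mueller glia make under stress, rose from 32.002, 39.02 and 43.9 to 55.3, 61.6 and 87.8, a difference of 1.42 ± 0.31 (limma, adjusted p = 0.00133), and 1 of the 1 month and 4 of the 3 month arrays lay above the bacterial limit. Stat3, the transcription factor of cytokine signalling, rose in median from 39.4 to 77.9, S100b, a calcium-binding protein of astrocytes, fell from 82.8 to 73.9 and Aldh1l1, a folate enzyme of astrocytes, from 50.02 to 24.99, while Lcn2, an iron-binding protein of reactive glia, had medians of 70.4 and 72.6 and was not called. This probe of Stat3 lay under the bacterial limit on all 1 month arrays, and its other probe was not called (-0.26, limma, adjusted p = 0.47).

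The lists of other cells were small. Of 6 tested microglia and leukocyte genes 3 were higher and 2 lower, with Ctss, a lysosomal protease, at medians of 64.3 and 79.2, Aif1, a marker of microglia, at 67.9 and 78.7 and Itgam, an integrin of myeloid cells, at 67.6 and 47.01. Of 8 endothelium and pericyte genes 3 were higher and 2 lower. Slc2a1, the glucose transporter of the blood-retinal barrier, and Kdr, the receptor for VEGF, had medians of 98.2 and 97.5 and of 95.9 and 96.4 and were not called, Slco1a4, an organic anion transporter, rose (from 57.3 to 68.5) and Cspg4, a proteoglycan of pericytes, fell (from 65.7 to 58.04). Of 8 lens genes 2 were higher and 1 lower, Lim2, a membrane protein of lens fibres, rising from 36.2 to 67.7 and Lenep falling from 80.3 to 70.97. Hba-a1, an alpha-globin, and Slc4a1, the anion exchanger of red cells, fell from 61.5 to 47.9 and from 58.7 to 46.9, while Alas2, the erythroid enzyme of heme synthesis, had medians of 45.997 and 48.4 and was not called. Of 4 genes of ciliary body, iris and cornea 2 were higher, and Col1a2, a collagen, and Aldh3a1, a corneal enzyme, had medians of 84.4 and 88.6 and of 55.9 and 57.8 with no call. Of 5 tested oligodendrocyte genes 2 were higher and 2 lower. Olig1, a transcription factor of the lineage, rose from 81.6 to 89.1, Mag, an adhesion protein of myelin, had 82.3 and 84.2 with no call, Mog, a protein of the myelin surface, rose from 9.49 to 62.1 and Mobp, a basic myelin protein, fell from 60.3 to 20.7 on its brightest probe while another of its probes was called higher. Mog lay under the bacterial limit on all 1 month arrays, and the brightest probe of Mobp on all 3 month arrays.

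**Figure D4:**
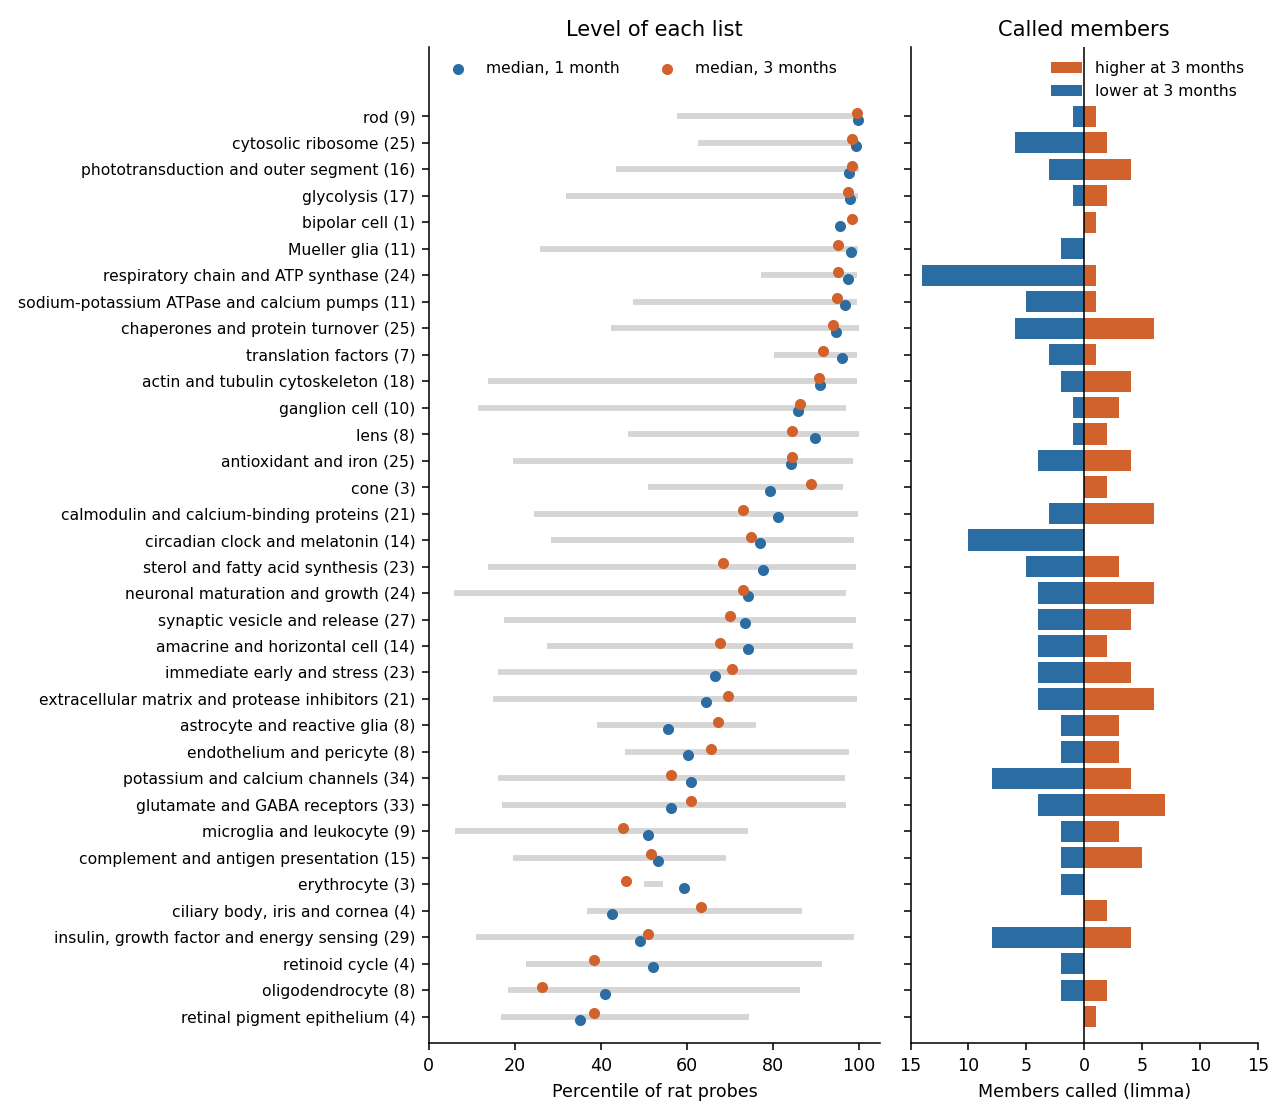
For each of 35 gene lists (number of measured genes in brackets), the left panel gives the median percentile at 1 month (blue) and 3 months (orange) with the range of the members' mean percentiles in grey, and the right panel the number of members called higher (orange) or lower (blue) at 3 months by limma. Rod, ribosome, phototransduction and glycolysis genes stand at the top, and the calls are one-sided for the clock and melatonin list (0 higher, 10 lower), while those of the respiratory chain (1 higher, 14 lower) became 5 higher and 8 lower with the trend over the array removed.

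Most of the tested clock and melatonin genes were lower at 3 months. The clock is a loop in which Clock and Bmal1 switch on the period and cryptochrome genes, which then repress them, and in the retina it times the synthesis of melatonin in photoreceptors. Of 14 measured genes 12 passed the filter, and 10 of these were lower and 0 higher, with a median difference of -0.60 on the log2 scale, against -0.14 over all tested named genes. Dbp, a clock output factor, lay at 99.04, 99.4 and 99.7 at 1 month and at 97.3, 98.4 and 98.8 at 3 months, a difference of -0.76 ± 0.14 (limma, adjusted p = 0.00035). Bmal1, the activator of the loop, lay at 87.1, 87.5 and 89.7 and then at 77.03, 83.4 and 84.5, a difference of -0.45 ± 0.13 (limma, adjusted p = 0.00821). Both genes had separated groups, as did 36.3% of the tested named genes.

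Aanat, the enzyme that sets the rate of melatonin synthesis, lay at 67.1, 69.1 and 74.4 at 1 month and at 23.8, 32.2 and 51.7 at 3 months, where all arrays lay under the bacterial limit, and was called lower (limma, adjusted p = 2.26e-05). Drd4, the dopamine receptor of photoreceptors, lay at 64.3, 69.7 and 70.9 and then at 11.2, 41.5 and 62.8, a difference of -1.45 ± 0.38 (limma, adjusted p = 0.00504), with 1 of the 3 month arrays above the bacterial limit, and its call was lost with the trend over the array removed (-0.56). No 3 month array reached the lowest 1 month array for either gene. Asmt, the last enzyme of melatonin synthesis, had medians of 46.1 and 27.8, and its groups overlapped. It lay above the bacterial limit on 2 of the 1 month and 0 of the 3 month arrays.

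Of the other members, Clock, the partner of Bmal1, fell from 60.8 to 46.8 (medians), the repressors Per2 from 93.1 to 90.2, Nr1d1 from 91.98 to 88.9, Nr1d2 from 81.7 to 76.03 and Bhlhe41 from 99.03 to 98.3. Clock lay under the bacterial limit on all 3 month arrays. Cry1, a cryptochrome, and Nfil3, a repressor that competes with Dbp, had medians of 92.8 and 92.5 and of 71.4 and 74.6 and were not called, and Cry2 and Bhlhe40 were too dim to be tested. Bmal1, Clock, Per2, Nr1d1, Nr1d2, Asmt and Drd4 were named after their values were seen. With the trend over the array removed 8 members were lower and 1 higher, with Per2 (0.37) and Bhlhe41 (0.02) turned in direction, and without replicate 2 of the 3 month controls 10 were lower and 0 higher. Under a limit of 10 percentile points 4 were lower and 0 higher. Of the 7 members above the bacterial limit on all 12 arrays, 5 were lower and 0 higher. Median scaling gave 10 lower and 0 higher, and subtraction of the 5th percentile 9 and 0. In the STZ rats the median difference of the list was -0.43. The hour at which the retinas were taken was not given in the labels, and its part was not tested.

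In energy metabolism, of 16 tested glycolysis genes 2 were higher and 1 lower, with a median percentile of 97.7 and a median log2 difference of -0.03. Under median scaling 0 were higher and 9 lower, and with the trend over the array removed 1 was higher and 3 lower. Hk1, the hexokinase that commits glucose to the cell, rose from 97.8, 98.5 and 98.7 to 98.997, 99.3 and 99.3, a difference of 0.46 ± 0.09 (limma, adjusted p = 0.000427), but its direction turned under median scaling (-0.19). Ldhb, the lactate dehydrogenase subunit of oxidative tissues, rose from 98.7, 99.3 and 99.4 to 99.4, 99.5 and 99.6 and turned direction under median scaling (-0.32) and with the trend over the array removed (-0.03), and it was named after its values were seen. Slc2a3, the neuronal glucose transporter, fell from 54.5, 57.01 and 64.5 to 16.8, 25.7 and 27.6 (limma, adjusted p = 2.80e-06), with all 3 month arrays under the bacterial limit.

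Of 24 genes of the respiratory chain, ATP synthase and mitochondrial carriers 14 were lower and 1 higher, against 33.3% and 20.6% of the tested named genes, with a median difference of -0.44. Atp5f1a, the catalytic partner subunit alpha of ATP synthase, fell from 99.2, 99.6 and 99.6 to 97.2, 97.8 and 98.8, a difference of -0.93 ± 0.11 (limma, adjusted p = 1.05e-05). Atp5f1c, the rotating shaft subunit gamma, fell from 98.1, 98.7 and 98.99 to 92.7, 94.5 and 95.2, a difference of -1.08 ± 0.11 (limma, adjusted p = 1.93e-06). Atp5me, a small membrane subunit, fell from 95.3, 96.1 and 98.05 to 76.2, 82.1 and 87.4, a difference of -1.66 ± 0.16 (limma, adjusted p = 1.93e-06). The groups were separated for all 3 genes.

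Cycs, the electron carrier cytochrome c, fell from 97.99 to 95.3 (medians), Cox7b, a subunit of cytochrome oxidase, from 98.6 to 96.4, and the outer membrane channels Vdac1 and Vdac2 from 99.6 to 99.3 and from 99.5 to 98.6. Slc25a4, an exchanger of ADP and ATP, rose from 90.5 to 92.97, turning direction under median scaling (-0.09), and its relative Slc25a5 had medians of 99.6 and 99.7 with no call. Cycs, Cox7b and Vdac2 were named after their values were seen. With the trend over the array removed 8 members were lower and 5 higher, and the members Atp5mc2 (0.16) and Cox6c (0.17), both called lower before, turned. The calls of Cycs (-0.18), Vdac2 (-0.01), Slc25a4 (0.01), Atp5pb (-0.22) and Atp5po (-0.12) were lost. In the STZ rats the median of the list was -0.35.

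Of 25 ribosomal protein genes 2 were higher and 6 lower, and 19 had a mean percentile of at least 95. Under median scaling 0 were higher and 18 lower, and with the trend over the array removed 6 were higher and 11 lower. Rps27a was given above, and Rps27 rose from 99.4, 99.6 and 99.7 to 99.8, 99.8 and 99.8, turning direction under median scaling (-0.22). Rps6, the ribosomal protein phosphorylated downstream of mTOR, fell from 99.7, 99.7 and 99.8 to 98.8, 99.1 and 99.3, a difference of -0.80 ± 0.08 (limma, adjusted p = 1.93e-06). Rps23, which sits at the decoding site, fell from 72.6, 76.6 and 86.5 to 40.9, 48.6 and 53.7 (limma, adjusted p = 7.90e-06), with all 3 month arrays under the bacterial limit. Rps27 and Rps6 were named after their values were seen. Of 7 translation factors 1 was higher and 3 lower, Pabpc1, which binds the poly(A) tail, rising from 97.7 to 98.8 with a turn under median scaling (-0.25), Tpt1 falling from 99.7 to 99.5 and Eif4a1, the helicase of initiation, from 96.5 to 91.1. With the trend over the array removed the calls of Pabpc1 (0.03), Tpt1 (-0.13) and Eif4a1 (-0.10) were lost. In that setting 1 translation factor was higher and 1 lower.

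At synapses, 4 of 15 tested vesicle and release genes were higher and 4 lower. Syp, the vesicle protein synaptophysin, rose from 98.2, 99.2 and 99.4 to 99.6, 99.7 and 99.8, a difference of 0.67 ± 0.11 (limma, adjusted p = 0.000173). Vamp2, the vesicle SNARE, rose from 86.7, 90.99 and 92.7 to 96.2, 97.2 and 98.5, a difference of 1.11 ± 0.14 (limma, adjusted p = 1.35e-05). The groups did not overlap for either gene, but both calls were lost under median scaling (0.0013 for Syp and 0.45 for Vamp2). Unc13b, a priming factor, fell from 83.8 to 67.6 (medians), and Cltc, the clathrin heavy chain, had medians of 98.9 and 98.1 and was not called on its brightest probe, while its other probe was called lower.

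Of 23 tested glutamate and GABA receptor genes 7 were higher and 4 lower. Gria2, the subunit that makes AMPA receptors impermeable to calcium, rose from 94.99 to 97.2 (medians) and turned direction under median scaling (-0.19). Grm5, a metabotropic receptor, fell from 55.1 to 13.7, with all 3 month arrays under the bacterial limit. Of 28 potassium and calcium channel genes 4 were higher and 8 lower, against 20.6% and 33.3% of the tested named genes. Kcnc1, a delayed rectifier, had medians of 96.3 and 96.9 with no call, Kcnh2, the channel of the rapid repolarizing current, rose from 35.9 to 56.6 and Kcnn3, a calcium-activated channel, fell from 56.7 to 10.9. Kcnh2 lay under the bacterial limit on all 1 month arrays and Kcnn3 on all 3 month arrays. Among pumps, 1 of 11 was higher and 5 lower. Atp1b1, the beta subunit of the sodium pump, had medians of 99.7 and 99.6 with no call, Atp2b1, a plasma membrane calcium pump, rose from 98.2 to 99.1 with a turn under median scaling (-0.14), and Slc8a1, the sodium and calcium exchanger, fell from 63.1 to 32.6 on its brightest probe while its other probe was called higher.

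Of 17 tested calcium-binding protein genes 6 were higher and 3 lower. Pcp4, which tunes calmodulin, had medians of 99.6 and 99.8 with no call, and Camk2n2, an inhibitor of calmodulin-dependent kinase, rose from 6.42 to 63.03. Of 17 cytoskeletal genes 4 were higher and 2 lower, with Dynll1, a light chain of dynein, at 99.4 and 99.5 and no call. Of 19 genes of neuronal maturation and growth 6 were higher and 4 lower. Ncam1, a neuronal adhesion molecule, rose from 95.6 to 98.5, Ccnd1, a cyclin of the start of the cell cycle, from 46.5 to 72.02, Cntn2, an axonal adhesion molecule, fell from 55.9 to 26.8, and Dpysl5, a regulator of growth cones, had medians of 96.3 and 97.5 with no call.

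Of 25 chaperone and protein turnover genes 6 were higher and 6 lower, near the shares of the tested named genes, and under median scaling 0 were higher and 14 lower. Hspa1a, the inducible heat shock protein, spread over 86.8, 91.1 and 94.4 at 1 month and 93.1, 97.2 and 99.4 at 3 months, a difference of 1.01 ± 0.25 (limma, adjusted p = 0.00377) whose call was lost under median scaling (0.35) and with the array trend removed (0.19), Hspe1, the mitochondrial co-chaperonin, rose from 98.8 to 99.4 (medians) with a turn under median scaling (-0.22), and Canx, a lectin chaperone of the endoplasmic reticulum, fell from 59.98 to 22.9. Of 22 antioxidant and iron genes 4 were higher and 4 lower. Sod1, the cytosolic superoxide dismutase, had medians of 98.4 and 98.8 with no call on its brightest probe, while another was called lower. Gpx4, which repairs lipid peroxides, rose from 97.6 to 98.7 with a turn under median scaling (-0.30), Txn2, the mitochondrial thioredoxin, rose from 18.8 to 56.4, and Gpx3, the secreted peroxidase, fell from 95.7 to 89.5. Of 15 immediate early and stress genes 4 were higher and 4 lower. Klf9, a glucocorticoid-responsive factor, had medians of 99.4 and 99.5 with no call on its brightest probe, while another was called higher, Cebpd, an acute phase factor, rose from 62.9 to 83.3 and Fosl1, a partner of Jun, fell from 57.2 to 26.1.

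Of 20 sterol and fatty acid synthesis genes 3 were higher and 5 lower. Hmgcs1, which makes the substrate of the rate-limiting step of cholesterol synthesis, and Scd2, a desaturase, had medians of 99.3 and 99.4 and of 99.01 and 98.9 with no call, Fasn, the fatty acid synthase, rose from 84.4 to 93.6 and Sqle, the squalene epoxidase, fell from 81.98 to 61.1. Of 18 extracellular matrix and protease inhibitor genes 6 were higher and 4 lower. Sparcl1, a secreted glial protein that promotes synapses, rose from 99.7 to 99.8 but fell under median scaling (-0.18) and with the array trend removed (-0.16), A2m, a broad protease inhibitor, fell from 98.3 to 96.4 and Mmp14, a membrane-bound protease, rose from 29.6 to 66.5. Of 14 complement and antigen presentation genes 5 were higher and 2 lower, Irf1, an interferon-responsive factor, rising from 63.5 to 74.5 on its brightest probe while its other probe was called lower, C4a rising from 63.3 to 73.1, Tap1, a peptide transporter, from 29.96 to 42.9 and C3, the central complement component, falling from 63.2 to 24.2. Of 20 insulin, growth factor and energy sensing genes 4 were higher and 8 lower. Igf2, a growth factor, rose from 98.5 to 99.2, with a turn under median scaling (-0.35) and with the array trend removed (-0.03), Hif1a, the hypoxia-induced factor, had medians of 97.4 and 95.4 with no call and Prkaa2, a catalytic subunit of AMP-activated kinase, fell from 53.3 to 20.7.

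The size of the shifts grew as probes became dimmer. Of the probes with a mean percentile of 35 to 50 68.8% were called, and of those at 50 to 75 51.9%. In the brighter bands the share was 39.7% at 75 to 90, 40.9% at 90 to 95, 42.4% at 95 to 99 and 37.2% at 99 to 100. The median size of the log2 difference was 0.97 at 35 to 50, 0.56 at 50 to 75 and 0.22 at 99 to 100. In percentile points it was 18.9, 10.1 and 0.133, but probes near the top have little room to move on that scale. Of the 1488 called named genes 409 were brighter than 95% of the bacterial probes on all 12 arrays. A dim gene could also pass the filter through the time point at which it was high, so the counts for dim genes are no measure of how many such genes moved.

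The 10 largest rises of all named genes were those of Hamp, Itih3, Adra1a, Grin2b, Rap2b, Ms4a2, Lum, Cd46, S100g and Mcf2l. Hamp, the iron hormone hepcidin, lay at 0.164, 0.851 and 5.72 at 1 month and at 63.8, 73.7 and 78.5 at 3 months. Grin2b, a subunit of NMDA receptors, lay at 1.63, 6.03 and 7.95 and then at 46.3, 71.1 and 97.999, and Lum, the corneal proteoglycan lumican, at 0.436, 7.07 and 12.3 and then at 53.3, 65.2 and 91.1. Dimmer, untested probes of Grin2b (means of 41.4 and 15.2) and Ms4a2 (40.5 and 21.0) went the other way, while that of Adra1a (2.46 and 5.70) went up. The median percentiles of the 10 genes were 0.851 to 7.07 at 1 month and 63.8 to 74.2 at 3 months. All 10 lay under the 95th percentile of the bacterial probes on all 1 month arrays, and 0 of 10 lay above it on all 3 month arrays.

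The 10 largest falls were those of Grifin, Adamts1, Drd5, Chrna5, Tex101, Musk, Vamp5, Pitx3, Rln3 and Or8g23. Grifin, a galectin-related protein of the lens, lay at 99.4, 99.8 and 99.95 at 1 month and at 0.0931, 0.145 and 0.282 at 3 months. Adamts1, a secreted metalloprotease, lay at 79.1, 86.1 and 87.8 and then at 0.0606, 0.123 and 0.152. The intensity of the Grifin probe ran from 7555 to 26064 at 1 month and from 5.26 to 13.7 at 3 months. All 10 genes lay brighter than 95% of the bacterial probes on all 1 month arrays and dimmer than this limit on all 3 month arrays. As values under this limit have no level, no size is given for these rises and falls. The differences between the shifts of STZ and control rats, given later for some of these genes, are inexact for the same reason.

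Grifin and Adamts1 belonged to 29 probes that were among the dimmest 1% on all 6 control arrays at 3 months and in the upper part (above the 50th percentile) on all 6 at 1 month, of which 21 were among the dimmest 1% on all 6 STZ arrays at 3 months as well. The opposite pattern was found for 0 probes. Besides these 2 genes, named probes of the set were those of Sec11c, a subunit of the signal peptidase, with means of 93.9 and 0.128, and Grm7, a presynaptic glutamate receptor, with 69.3 and 0.118. Whether these probes measured their genes at 3 months was not tested.

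Different probes of a gene often disagreed. Of 295 genes with at least 2 tested probes, 87 had at least 2 called probes, and in 43 of these the called probes went in opposite directions, against 44 with 1 direction. For Mobp, the means went from 60.3 to 24.9 on the brightest probe and from 3.71 to 67.6 on another. Dimmer probes that were not tested went against the brightest probe for Grin2b, Ms4a2, C3, Kcnn3, Slc2a3, Sqle, Prkaa2 and Slc24a1. They went with it for Adra1a, Grm5 and Olig1. Tested probes with no call went against it for Mapk6 (-0.46) and Stat3 (-0.26) and with it for Cntn2 (-0.14), Gpx3 (-0.15) and Hspe1 (0.04).

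The rats given STZ offered the same time contrast in other animals, on arrays of the same time points. Over the 20366 probes tested in both, the differences of the control and the STZ rats were correlated across probes (Pearson 0.834, Spearman 0.809), given as a description. Of the 10357 control calls among these, 7557 were called in the same direction in the STZ rats, which is 73.0% of the control calls and 69.4% of the STZ calls. For the abundant genes the correlation was 0.751, and 90 of the 133 control calls were shared in direction. The difference between the time shifts was itself called by limma for 241 of 2756 tested named genes, or 8.74%, and for 6.78% of all tested probes. Among the genes named above, the shift in the STZ rats minus that in the controls was -1.09 on the log2 scale for Grk1 (limma, adjusted p = 0.0149). It was -0.92 for Glul (limma, adjusted p = 0.0378) and 1.26 for Aanat (limma, adjusted p = 0.0153). The size for Aanat is inexact, as it lay under the bacterial limit on all 3 month control arrays.

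**Figure D5:**
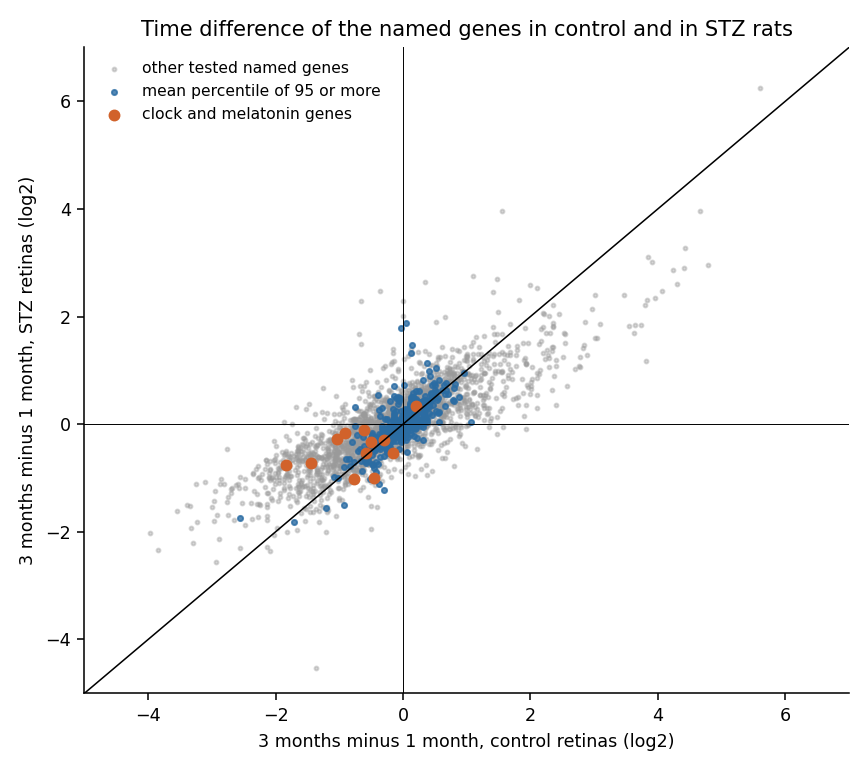
The log2 difference between 3 months and 1 month of each tested named gene in the STZ rats against that in the control rats, with the line of equality, the abundant genes in blue and the clock and melatonin genes in orange. The points scatter along the line, with a correlation of 0.751 for the abundant genes, and Grifin and Adamts1 lie outside the axes. Differences that involve values under the bacterial limit have no exact size.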

How the data were processed

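Total RNA of each retina was amplified to biotin-labeled cRNA and hybridized to a CodeLink rat whole genome array. Per the authors' methods, spots were read with the CodeLink software, local background was subtracted and each array was normalized within itself, and the deposited values were linear intensities. The genome build was not given in the sources used here.

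The background-subtracted intensity of each array was divided by the median of its rat probes, and a floor of 0.01 was applied before the log2 step and quantile normalization of the 12 control arrays. The 62 bacterial probes were left out of ranks and tests. Ranks and percentiles were taken within each array. Probes were named through the RefSeq accession of the array design and the RefSeq gene table (4675 of 5469 accession probes matched), and a gene was represented by its probe of highest mean percentile. Groups came from the sample titles. Time points were tested in R 4.3.3 by limma 3.58.1 (empirical Bayes with a variance trend, Benjamini-Hochberg adjustment) over 21568 probes with a mean percentile of at least 35, and a call needed an adjusted p under 0.05 and a 1.2-fold difference. The STZ arrays were treated in the same way, and the interaction was fitted over all 24 arrays. Array measures were compared by exact permutation tests in Python with scipy. The model was tested on simulated data. The number of arrays limits the precision, and 1 value was missing in the control arrays.

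The members and the gene lists were chosen with earlier results of these data known. The genes named were the 20 with the highest mean percentile, the 10 largest rises and falls with separated groups among all genes and the 5 largest among abundant ones, the 5 steadiest abundant genes, the 5 most variable within groups, and for each list the 2 brightest members and the called members with the largest rise and fall. Single values of a few genes that this rule names are not reported here. Alternatives were median scaling, percentile ranks with a limit of 10 points, normal scores, subtraction of the 5th percentile, other filters and fold limits, other variance models, the methods' test, a model of all 24 arrays, the series-level values, the replicate number as a block, array brightness as a covariate and leaving out each array. Removal of a trend over rows and columns of the array, and a filter at the 95th percentile of the bacterial probes on all 12 arrays, were added after seeing the data. The 6 replicate numbers did not pair the samples, with correlations of deviations of -0.063 to 0.147.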

Additional observations from a re-analysis of the deposited data

Results flagged for a closer look

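Among the genes named in the report, 43 of 310 groups of 6 control retinas had 1 retina far from the other 5 (Dixon's ratio, the gap to the nearest other retina over the range of the group, above its 95% critical value). Chance flags about 1 in 20 groups, but this rate is no reference for the 5 genes named for their spread within groups. The named genes share arrays, so the flags are not independent. Of the 43 flags, 20 came from replicate 2 of the 3 month controls and 11 from replicate 5 of the 1 month controls. Replicate 2 of the 3 month controls was the high retina with ratios of 0.655 for Grin2b, 0.71 for Rap2b, 0.649 for Lum, 0.642 for S100g, 0.658 for Mcf2l, 0.752 for Grk1, 0.643 for Aldh1l1, 0.808 for Olig1, 0.783 for Mag, 0.677 for Mog, 0.651 for Gfap and 0.813 for Tap1. It was the low retina with 0.653 for Eif3h, 0.794 for Calb1, 0.787 for S100b, 0.713 for Kdr, 0.883 for Slc25a5, 0.952 for Gria2, 0.728 for Cebpd and 0.669 for Hif1a. This array had a median Spearman correlation of 0.778 with the others of its group, and what set it apart was not tested.

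Replicate 5 of the 1 month controls was the high retina with ratios of 0.712 for Slc24a1, 0.67 for Eif4a1, 0.685 for Grm5, 0.794 for Gpx4, 0.729 for Dpysl5 and 0.811 for Kcnc1 and the low one with 0.767 for Cpe, 0.784 for Slc25a5, 0.776 for Slc25a4, 0.673 for Cltc and 0.771 for Sparcl1. Replicate 4 of the 1 month controls was high with 0.683 for Rpl6, 0.663 for Atp5me and 0.7 for Rps23 and low with 0.92 for Sycp3. Replicate 1 of the same group was low with 0.675 for Ldha and 0.645 for Atp5f1a, and replicate 2 was high with 0.964 for Mx2. In the 3 month controls, replicate 3 was high with 0.816 for Aipl1, replicate 3 was low with 0.631 for H3f3b, replicate 4 was high with 0.889 for Trim3, replicate 4 was low with 0.729 for Tpt1 and replicate 1 was high with 0.638 for A2m.

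The time shift differed between STZ and control rats for 27 of the 155 genes named by rule (interaction over 24 arrays, limma, adjusted p under 0.05). Many of these were chosen for a large shift in the controls, which by itself favours a smaller shift in other rats, so their number is no result. They include 8 of the 10 largest falls, for 24 of the 27 the sign was opposite to that of the control shift, and 19 lay under the bacterial limit on all control arrays of a time point, which leaves their size inexact. The shift in STZ minus that in control rats, on the log2 scale, was 2.17 for Drd5, 1.79 for Chrna5, 2.17 for Tex101, 2.10 for Musk, 2.07 for Vamp5, 1.69 for Pitx3, 1.36 for Rln3, 2.32 for Or8g23, 1.00 for Dck, 2.14 for Lenep, 1.82 for Mobp, 1.68 for Gucy2e, 1.23 for Crabp2, 0.97 for Slc2a3, 1.16 for Canx, 1.26 for Aanat, 1.5 for Cebpd, 1.22 for Cntn2, 0.92 for A2m, 1.09 for Clu, 0.73 for C4a and 0.95 for C3. It was -0.92 for Glul, -1.85 for Ms4a2, -1.74 for S100g, -1.09 for Grk1 and -1.70 for Camk2n2.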

How the results depend on the processing

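The count of 11298 called probes became 20556 without the filter on dim probes, 6938 with a mean percentile of at least 50 and 2893 of the 6810 probes above the bacterial probes, where fewer probes were tested, and ran from 10161 to 12958 when 1 array was left out. The counts of named genes (1488) became 2471, 914 and 408 in the same settings, and of abundant genes (133) 205 under median scaling, 48 after subtraction of the 5th percentile of every array, 0 in limma under a limit of 10 percentile points, which genes near the top of the scale can hardly pass, and 139 by normal scores with no limit. The share of called probes that were higher at 3 months (44.7%) was 26.4% under median scaling, 43.0% by percentile rank, 36.9% with the 5th percentile subtracted, 47.3% without the filter, 43.6% with a mean percentile of at least 50, 48.1% with array weights, 47.3% and, after Benjamini-Hochberg adjustment, 46.6% with the methods' test, 47.3% with the trend over the array removed and 65.3% above the bacterial probes, and 43.2% to 49.4% when 1 array was left out, the highest without replicate 2 of the 3 month controls. The 220 abundant genes in the brightest 5% on all 12 arrays became 378 for the brightest 10% and 106 with percentiles over named genes alone. Median scaling moved 29 of 35 list medians, of which 8 changed sign, and moved the median difference of all tested probes from -0.09 to -0.47. Against this shift, the differences that turned under median scaling were those of Atf4 (-0.25), Gnb3 (-0.21), Hk1 (-0.19), Slc25a4 (-0.091), Pabpc1 (-0.25), Gria2 (-0.19), Atp2b1 (-0.14), Hspe1 (-0.22), Gpx4 (-0.30), Sparcl1 (-0.18), Igf2 (-0.35), Unc119 (-0.35), Ldhb (-0.32) and Rps27 (-0.22). With the trend over the array removed, those of Bhlhe41 (0.015), Sparcl1 (-0.16), Igf2 (-0.026), Ldhb (-0.033), Atp5mc2 (0.16), Cox6c (0.17) and Per2 (0.37) turned. Of 132 genes with a reported difference 53 kept their call in all settings in which they were tested, and 11 lost it when 1 array was left out, with 0 turned. The call was lost under median scaling for 18 genes (Rps27a, Grk1, Mapk6, Bin1, Grm6, Sgk1, Opn1sw, Aif1, Slco1a4, Olig1, Syp, Vamp2, Hspa1a, Ncam1, Fasn, Irf1, C4a and Asmt), with the trend removed for 20 (among them Prnp, Grk1, Sgk1, Cspg4, Lenep, Slc4a1, Slc25a4, Tpt1, Pabpc1, Eif4a1, Hspe1, Hspa1a, Gpx3, Unc119, Cycs, Vdac2, Rps27 and Drd4) and after subtraction of the 5th percentile for 25 (among them Rps27a, Atf4, Prnp, Grm6, Sgk1, Gnb3, Hk1, Slc25a4, Pabpc1, Syp, Gria2, Atp2b1, Hspe1, Gpx4, Bhlhe41, Ncam1, Sparcl1, A2m, C4a, Igf2, Unc119, Ldhb and Rps27). The trend removal and the limit at the bacterial probes were chosen after seeing the data, and the causes of these changes were not tested. With the replicate number as a block 10994 probes, 1456 named and 126 abundant genes were called, and the numbers did not pair the samples, so this is given as a value only. The retinas share a time point and its arrays, so p-values measure the difference between sets of arrays, and dim genes are limited by signal over background.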
